A study of Mus musculus with 60 samples.

Results

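A set of 10 genes that mark cells of the olfactory bulb were followed through RNA sequencing of the mouse prefrontal cortex. They were Dcx, Dlx1, Dlx2, Dlx5 and Sp8, which mark migrating neuroblasts and young interneurons, Cdhr1, Eomes, Tbx21 and Doc2g, which mark mitral and tufted projection neurons, and Th, which marks dopaminergic periglomerular neurons. The genes were chosen by name, with earlier results of these data known, and 10 of 10 had a row among the 18088 genes measured. All 10 passed the filter on low values, which asked for 10 normalized counts or more in 5 libraries or more, as did 17807 genes in all.

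The study compared Chd8+/N2373K heterozygous mice (Het), which carry 1 changed allele of the chromatin remodeler gene Chd8, with wild-type mice (WT), all C57BL/6J. The 12 groups of 5 libraries were Het fluoxetine, Het lithium, Het vehicle, WT fluoxetine, WT lithium and WT vehicle, each in males and in females. Fluoxetine is a serotonin reuptake inhibitor and lithium a mood stabilizer, and all pups received drug or vehicle through the mother's milk from postnatal day 3 to 24, so every group shared this route and its 3 weeks. Brains were taken at postnatal day 25. The sources used here give neither doses nor litters, and pups of one group may share a mother, so a p-value sets a difference against the spread among these libraries and nothing wider.

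The olfactory bulb lies directly in front of the prefrontal cortex. It receives neuroblasts throughout life from the subventricular zone by way of the rostral migratory stream, and these neuroblasts turn into GABAergic granule and periglomerular cells under Dlx and Sp8 transcription factors. Mitral and tufted cells, which carry the output of the bulb to the cortex, are glutamatergic and express the T-box factors Eomes (also called Tbr2) and Tbx21 (also called T-bet). Some cortical interneurons also express Dlx genes and Sp8, whereas Cdhr1, Eomes and Tbx21 are known in adult forebrain mainly from the bulb.

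The values are normalized counts, reads scaled by 1 size factor in each library, and recovered reads per library, in units of 10 to the power 6, ran from 24.1 to 31.6 with a median of 28.3. Chd8 stood at 2671 ± 134 normalized counts in Het libraries and at 3094 ± 91.7 in WT libraries (SD, n = 30 each), and the ranges were 2421 to 3072 in Het and 2951 to 3285 in WT. The library labelled Het fluoxetine male replicate 5 was the one at 3072, inside the WT range, and it is called by its label below. Markers of the labelled tissue were present in every library, with the summed level of 10 cortical projection neuron genes at 49658 to 74352 normalized counts and none of these genes at 0.

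The 5 neuroblast genes were detected in all 60 libraries and varied more within groups than most genes. Dcx (chromosome X, 143855842 to 143933311, minus strand) encodes a microtubule-binding protein of migrating neuroblasts and had 1349 normalized counts in the lowest library, 2785 at the median and 10368 in the highest. Dlx1 (chromosome 2, 71528113 to 71533981, plus strand), a homeodomain factor of GABAergic precursors, had 522 normalized counts in the lowest library, 959 at the median and 5142 in the highest. For its neighbor Dlx2 (chromosome 2, 71543408 to 71546754, minus strand), which acts in the same precursors, these levels were 80.0 normalized counts in the lowest library, 193 at the median and 766 in the highest. Dlx5 (chromosome 6, 6877805 to 6882085, minus strand), a homeodomain factor of later precursors and young interneurons, had 75.4 normalized counts in the lowest library, 159.7 at the median and 466 in the highest, the narrowest span of the 10 as a ratio of highest to median. Sp8 (chromosome 12, 118846329 to 118852576, plus strand), a zinc finger factor of bulb interneuron precursors, had 26.6 normalized counts in the lowest library, 154 at the median and 1262 in the highest. Of these 5 genes Sp8 spread the most, and its highest library was 8.19 times its median library.

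The spread within groups can be set against all genes. The standard deviation of log2(value + 1) among libraries of one group was 0.56 for Dcx, 0.68 for Dlx1, 0.64 for Dlx2, 0.55 for Dlx5 and 1.10 for Sp8, against a median of 0.17 over the 17807 genes tested. Larger values were held by 11.4% of genes for Dcx, 7.14% for Dlx1, 8.27% for Dlx2, 11.7% for Dlx5 and 1.84% for Sp8. Dlx1 overlaps the antisense gene Dlx1as on the opposite strand, which has its own row. The library kit kept strand, but how the counting used it is not given, so the level of Dlx1 is uncertain.

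The 4 projection neuron genes spread much further, from 0 reads for Eomes and Tbx21 to 9257 normalized counts for Cdhr1. Cdhr1 (chromosome 14, 37077857 to 37098347, minus strand), a cadherin-related membrane protein of mitral and tufted cells, had 65.2 normalized counts in the lowest library, 469 at the median and 9257 in the highest. Doc2g (chromosome 19, 4003313 to 4007005, plus strand), a C2 domain protein of the Doc2 family, had 73.6 normalized counts in the lowest library, 179 at the median and 4095 in the highest. Eomes (chromosome 9, 118478212 to 118486132, plus strand), a T-box factor needed for mitral and tufted cell differentiation, had 0 normalized counts in the lowest library, 21.4 at the median and 1471 in the highest. Tbx21 (chromosome 11, 97098071 to 97115331, minus strand), the T-box factor of later mitral and tufted cells, had 0 normalized counts in the lowest library, 11.2 at the median and 488 in the highest. The within-group standard deviations on the log2 scale were 1.60, 1.56, 2.72 and 2.32 in that order of genes, and 0.612%, 0.674%, 0.124% and 0.219% of all tested genes had larger ones.

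Tbx21 had 0 reads in 3 libraries, WT fluoxetine female replicate 3 and WT lithium female replicates 1 and 5, and Eomes had 0 reads in Het fluoxetine male replicate 1. A count of 0 allows up to 3 reads, which is 3.48, 3.39, 2.83 and 3.15 normalized counts in these 4 libraries in turn, for counting error only. At the other end, Het vehicle male replicate 1 was the highest of all 60 libraries for all 10 genes, and WT lithium female replicate 3 was the second for all 10. Doc2g shares 2504 bases with Gm49405 on the same strand, and Eomes overlaps an antisense gene, Gm33460, so reads could be divided differently for these members.

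The promoters of the 4 projection genes are shown because, as described below, these genes were highest in the same libraries. RefSeq on GRCm38.p6 gave a promoter for 9 of the 10 members, each from 250 bases before to 50 after the annotated start, on the gene's own strand and 5′ to 3′. The windows below are chr14:37098298-37098597 (minus strand), chr19:4003135-4003434 (plus strand), chr9:118477939-118478238 (plus strand) and chr11:97115282-97115581 (minus strand). Capitals mark the GC box GGGCGG and the E-box CAGCTG.
Cdhr1: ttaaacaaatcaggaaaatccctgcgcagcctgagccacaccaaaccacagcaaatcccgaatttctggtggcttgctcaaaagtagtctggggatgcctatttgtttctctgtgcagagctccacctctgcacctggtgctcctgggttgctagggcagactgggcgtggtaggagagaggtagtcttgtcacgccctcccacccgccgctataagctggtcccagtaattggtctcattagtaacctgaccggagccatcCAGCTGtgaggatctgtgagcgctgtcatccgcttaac
Doc2g: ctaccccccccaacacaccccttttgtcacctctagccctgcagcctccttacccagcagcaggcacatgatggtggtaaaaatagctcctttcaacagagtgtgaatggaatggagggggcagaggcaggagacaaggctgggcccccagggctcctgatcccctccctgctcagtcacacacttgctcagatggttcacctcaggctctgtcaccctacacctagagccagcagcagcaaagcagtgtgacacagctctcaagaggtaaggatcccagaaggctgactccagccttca
Eomes: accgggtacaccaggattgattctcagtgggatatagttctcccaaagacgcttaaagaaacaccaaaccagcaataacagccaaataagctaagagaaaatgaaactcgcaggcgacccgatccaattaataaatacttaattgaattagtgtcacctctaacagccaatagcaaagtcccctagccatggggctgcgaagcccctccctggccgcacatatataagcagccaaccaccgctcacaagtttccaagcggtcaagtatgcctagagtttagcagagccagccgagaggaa
Tbx21: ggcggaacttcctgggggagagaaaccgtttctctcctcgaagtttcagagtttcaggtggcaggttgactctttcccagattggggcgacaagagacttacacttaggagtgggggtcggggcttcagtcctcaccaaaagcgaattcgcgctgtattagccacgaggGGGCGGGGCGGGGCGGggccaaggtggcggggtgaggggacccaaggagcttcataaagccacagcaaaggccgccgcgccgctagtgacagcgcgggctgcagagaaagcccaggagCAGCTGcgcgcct
The search for 4 motifs ran on both strands, with overlaps between matches allowed. Tbx21 held 3 GC boxes, each of which shares a base with the next, and 1 E-box, and Cdhr1 held 1 E-box. The GC box was found in 57.8% and the E-box in 16.1% of 16293 promoters of the same length. The homeodomain core TAATTA, found in 3.04% of promoters, and the T-box motif GGTGTGA, found in 3.48%, were in none of the 4 windows. Among the other members, TAATTA was found for Dcx and for 1 of 3 starts of Sp8. A match is a description of these letters only.

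Th (chromosome 7, 142892752 to 142931128, minus strand) encodes tyrosine hydroxylase, the rate-limiting enzyme of catecholamine synthesis, and in the bulb it is made by dopaminergic periglomerular cells. It had 17.9 normalized counts in the lowest library, 109 at the median and 1559 in the highest, with a within-group standard deviation of 1.40, which 0.96% of genes exceeded. Catecholamine fibers from the midbrain also reach the prefrontal cortex, but their cell bodies and most of their Th mRNA lie outside it.

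Compared per kilobase of exon, the median levels ordered the 10 genes as Dcx at 220.2 normalized counts per kilobase, Dlx1 at 178, Cdhr1 at 108, Dlx5 at 70.6, Dlx2 at 67.5, Doc2g at 58.9, Th at 46.1, Sp8 at 33.8, Eomes at 5.14 and Tbx21 at 4.49. The ranges over 60 libraries of each pair of neighbors in this order overlapped.

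**Figure D1:**
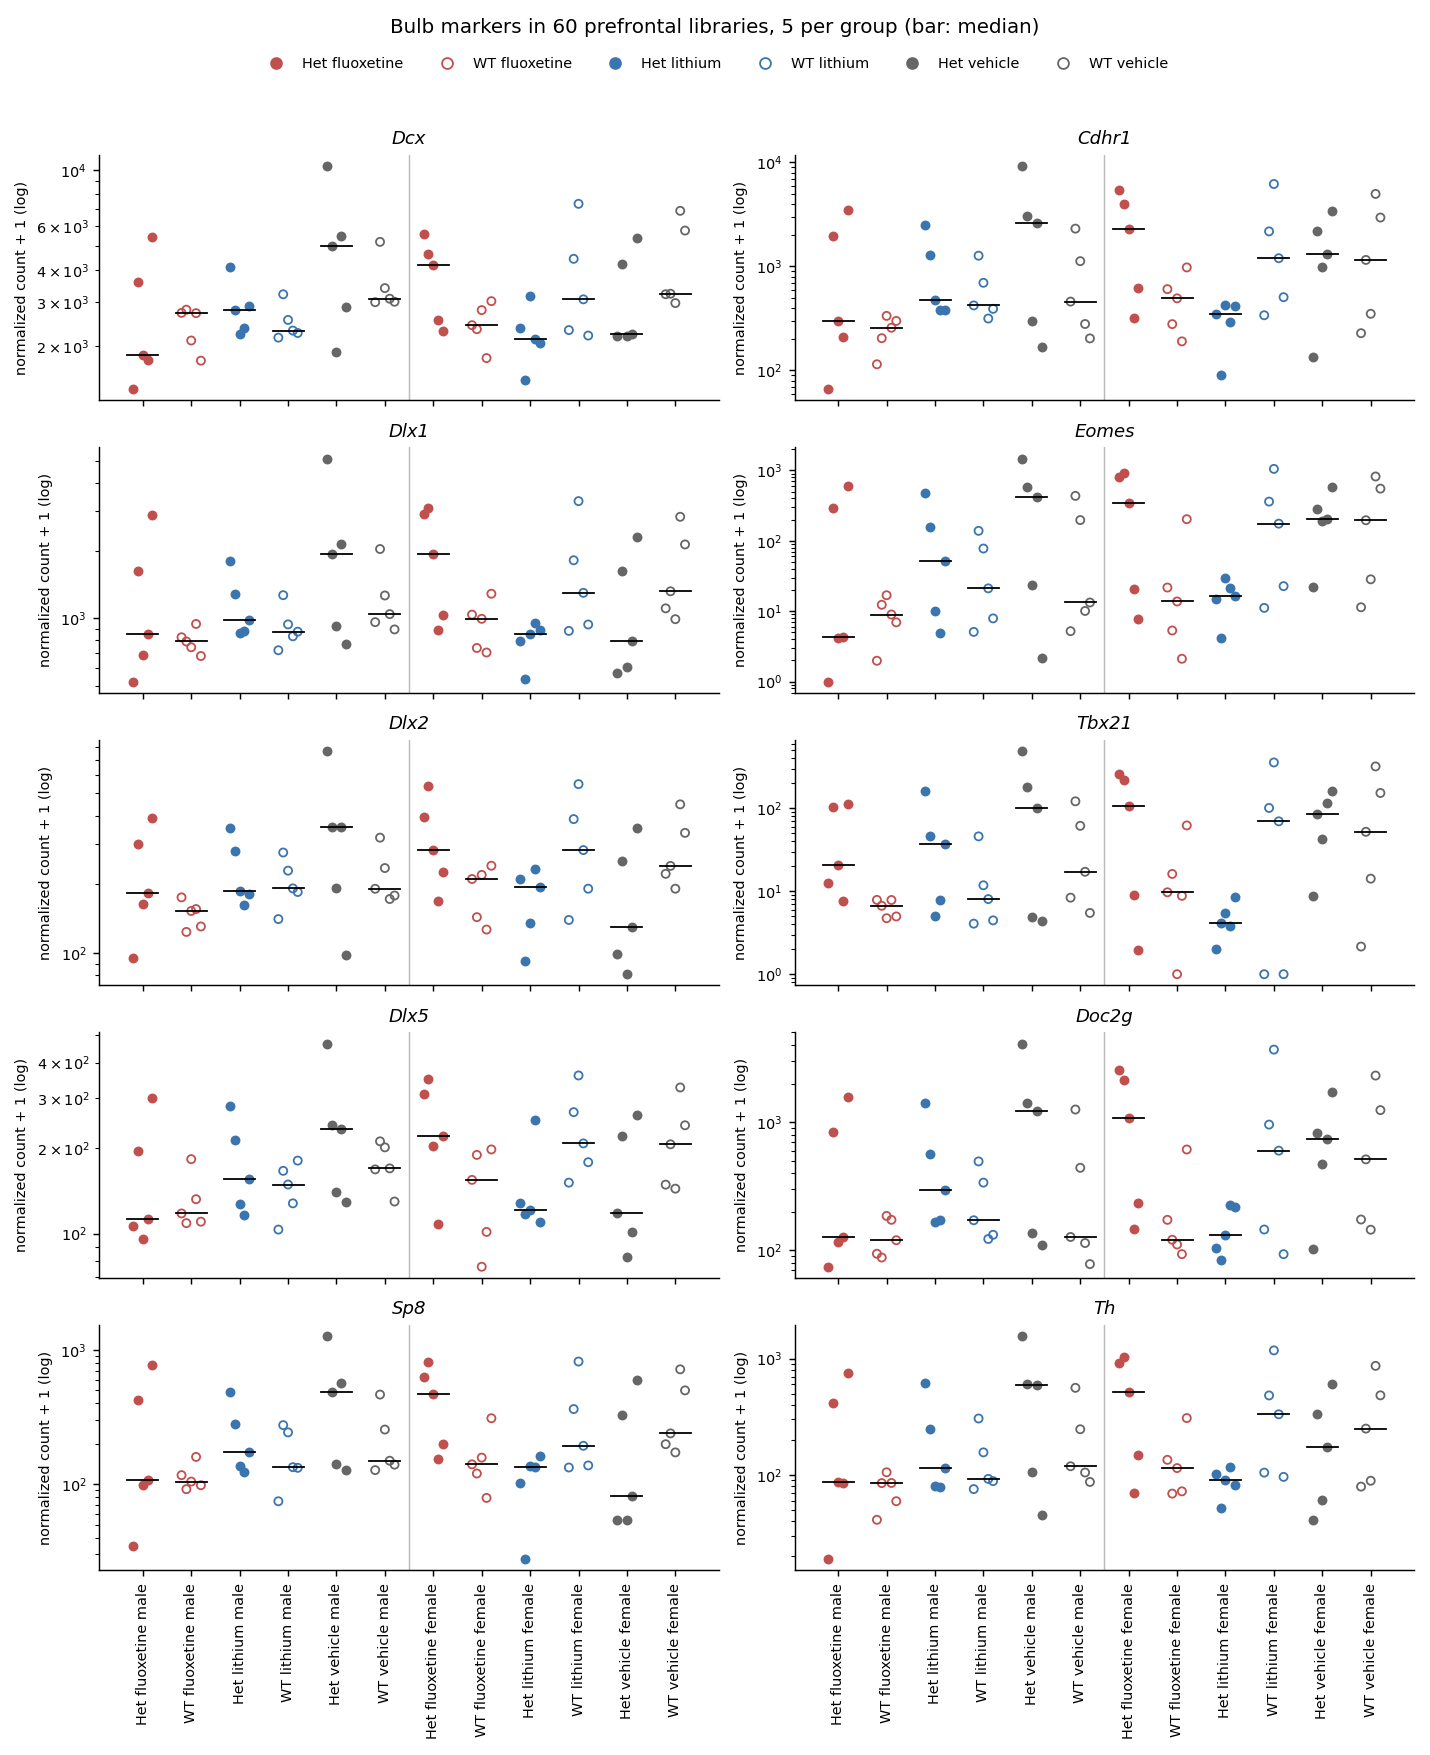
Normalized counts of the 10 genes on a log axis (value + 1), 1 point per library, in the 12 groups of 5 libraries with males left and females right of the grey line. Bars are group medians. Points of one group can reach across most of an axis, as for Cdhr1 in Het vehicle males, from 167 to 9257.

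The 4 projection genes were high in the same libraries. The 24 libraries with the most Cdhr1 were also the 24 with the most Eomes, the 24 with the most Tbx21 and the 24 with the most Doc2g. In those 24 libraries Cdhr1 was at 978 or more, against 696 or less in the other 36. Eomes was at 137 or more against 76.6 or less, Doc2g at 439.5 or more against 337 or less, and Tbx21 at 41.5 or more against 36.6 or less. The size of 24 was taken because the 4 rankings agreed fully there, and they also did so for the first 1, 2 and 5 libraries, so these bounds are a description. The gap between the 24 and the 36 was small for Tbx21 and wider for the other three genes.

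By the study's groups, the 24 libraries numbered 3 of 5 in Het fluoxetine females, 2 in Het fluoxetine males, 0 in Het lithium females, 2 in Het lithium males, 4 in Het vehicle females and 3 in Het vehicle males. Among WT groups they numbered 1 in fluoxetine females, 0 in fluoxetine males, 3 in lithium females, 1 in lithium males, 3 in vehicle females and 2 in vehicle males. They made up 14 of 30 Het and 10 of 30 WT libraries. By treatment they were 6 of 20 fluoxetine, 6 of 20 lithium and 12 of 20 vehicle libraries. No test was made of these counts, because the split was drawn from the genes themselves. In bulk RNA, less bulb tissue in a dissection, fewer cells of a type and less RNA per cell cannot be told apart.

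Levels of Cdhr1 show the pattern library by library, with replicates 1 to 5 in order. In Het fluoxetine females they were 5384, 4016, 2316, 319 and 616, and in WT fluoxetine females 604, 278, 493, 189 and 978. Het fluoxetine males had 65.2, 1960.0, 296, 209 and 3513, and WT fluoxetine males 114, 203, 334, 257 and 299. WT fluoxetine males held none of the 24 high libraries, and Het fluoxetine males held both the lowest of all 60 and a library at 3513. In Het lithium females the values were 352, 89.5, 429, 292 and 414, and in WT lithium females 339, 2174, 6209, 1199 and 506. Het lithium males had 2522, 1281, 480.0, 382 and 384, and WT lithium males 421, 1269, 696, 315 and 390.5. The Het lithium females were all at 429 or lower, while the WT lithium females reached 6209. Het vehicle females had 133, 2215, 988, 1316 and 3410.4, and WT vehicle females 227, 1155, 349.7, 4985 and 2954. Het vehicle males had 9257, 3039, 296, 2632 and 167, and WT vehicle males 459, 2311, 1124, 279 and 202. All 4 vehicle groups held both high and low libraries, and Het and WT overlapped in each of these 6 pairs.

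The neuroblast genes and Th followed this order in most libraries. Of the 24 libraries, 21 were among the 24 highest for Dcx, 22 for Dlx1, 22 for Dlx2, 21 for Dlx5, 21 for Sp8 and 23 for Th. Values above every one of the other 36 libraries were reached by 18 of the 24 for Dcx, 22 for Dlx1, 22 for Dlx2, 9 for Dlx5, 20 for Sp8 and 23 for Th. The median over the 24 was 464 normalized counts for Sp8, against 132 over the 36, and for Th it was 499 against 85.8. Floors differed between the genes, since the lowest library of the 36 still held 1349 normalized counts of Dcx and 522 of Dlx1, but 0 of Eomes and Tbx21.

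**Figure D2:**
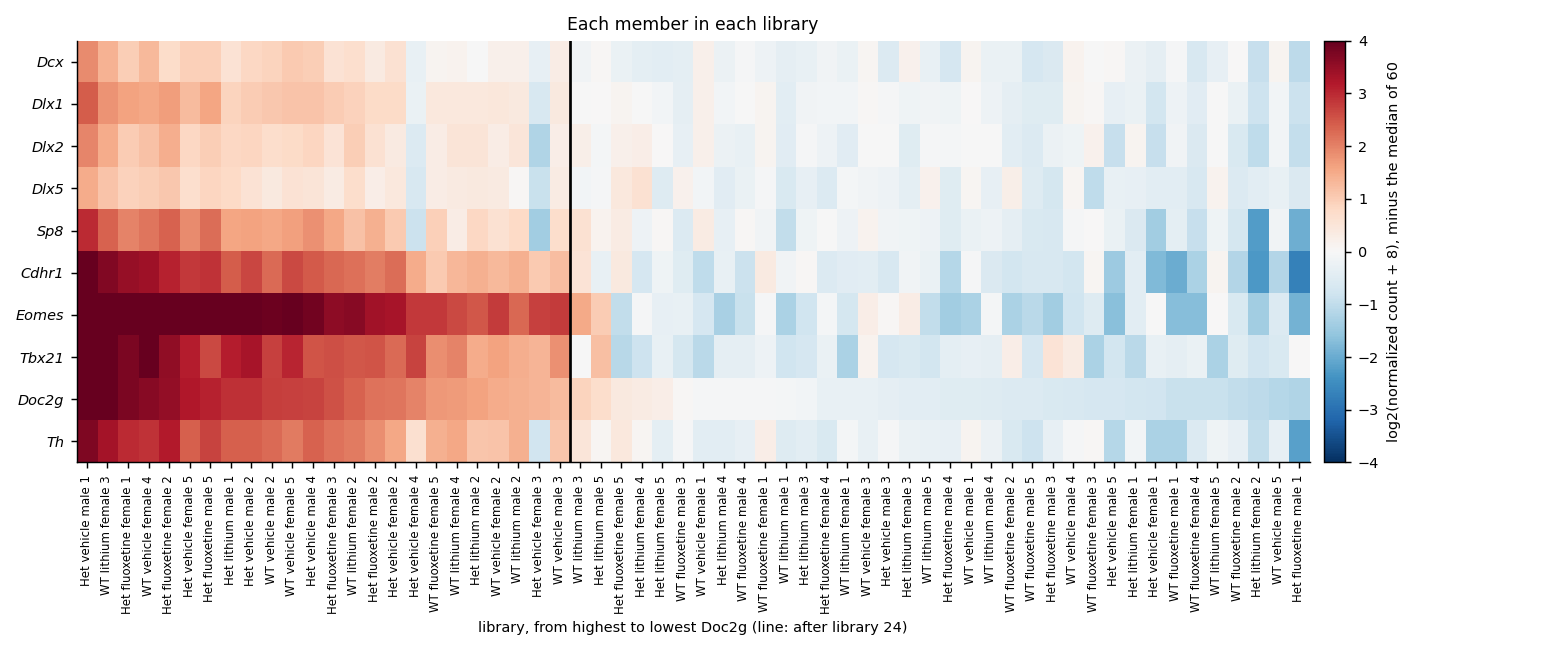
Each gene in each of the 60 libraries, as log2(normalized count + 8) minus that gene's median, with libraries ordered from highest to lowest Doc2g and a line after library 24. The color scale stops at 4 in either direction, so Eomes and Tbx21 in the leftmost libraries lie beyond it. Columns left of the line are red for most genes, except Het vehicle female 3 and 4.

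Het vehicle female replicates 3 and 4 went against this order. Both were among the 24 highest for the 4 projection genes, with Cdhr1 at 988 and 1316 and Tbx21 at 41.5 and 116 normalized counts. All 5 neuroblast genes were below their medians in both libraries. Sp8 was at 53.3 and 80.5, Dlx1 at 606 and 791, and Dlx2 at 80.0, the lowest of 60, and 129. Th was at 60.2 in replicate 3 and at 174 in replicate 4, that is below and above its median of 109.

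Those 2 libraries were also low in myelin genes. The summed level of 7 oligodendrocyte genes (Mbp, Mog, Mag, Mobp, Cnp, Opalin and Cldn11) ran from 21106 to 144441 normalized counts over the 60 libraries, with no gene at 0 in any. Its 4 lowest libraries were Het lithium female replicate 2 at 21106, Het vehicle female replicate 3 at 21680.2, Het fluoxetine male replicate 1 at 22779 and Het vehicle female replicate 4 at 27793. The same Het lithium female replicate 2 and Het fluoxetine male replicate 1 had the lowest levels of Sp8, 26.6 and 33.6, and of Cdhr1, 89.5 and 65.2. The median Spearman correlation of the 7 genes over the 60 libraries was 0.49 with Dlx2 and 0.01 with Tbx21, as a description. Het vehicle female replicates 3 and 4 were also high in the summed level of 6 leptomeningeal genes, at 8011.5 and 8600.2 normalized counts. Het fluoxetine male replicate 1 was at 8599, Het vehicle female replicate 1 at 8299.8 and WT fluoxetine male replicate 1 at 8040.1. Sp8 was at 53.6 and 116 in the latter pair. A high sum was not limited to libraries with low Sp8. WT lithium female replicate 3, with Sp8 at 816, had a sum of 8069.4. The medians of this sum were 5298 in the 24 libraries and 5558 in the 36, and 8600.2 was the highest of all. The part of either list's tissue in the neuroblast values was not tested.

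**Figure D3:**
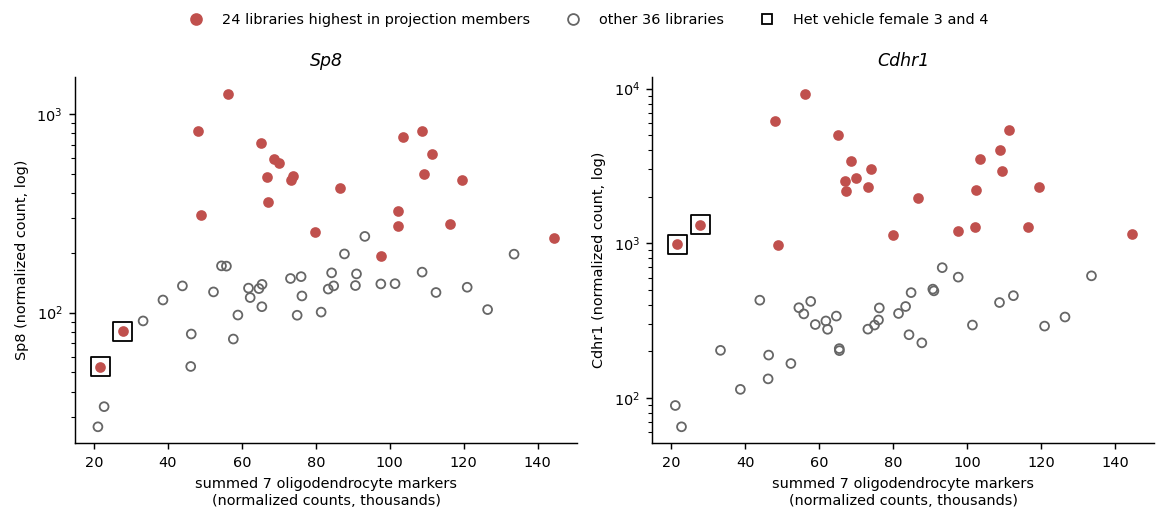
Sp8 (left) and Cdhr1 (right) on a log axis against the summed level of 7 oligodendrocyte genes on an axis of normalized counts divided by 10 to the power 3, 1 point per library. Filled points are the 24 libraries highest in projection genes and squares mark Het vehicle female 3 and 4, which lie at 21680.2 and 27793 normalized counts with low Sp8 and high Cdhr1.

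Among the 24 libraries the members rose and fell together. Correlations of log2(value + 1) were taken within the 24 and within the 36, the sets cut by the rankings of the projection genes. They covered 45 pairs of members in each set and 90 relations in all. Two-sided permutation tests used 100000 resamples, so their smallest possible p was 1e-05. Within the 24, Pearson's r ran from 0.94 to 0.98 for the 6 pairs of projection genes, from 0.86 to 0.97 for the 10 pairs of neuroblast genes and from 0.73 to 0.93 for the 20 pairs across these roles. For Th it ran from 0.90 to 0.97 with the neuroblast genes and from 0.85 to 0.89 with the projection genes. All 45 had an adjusted p under 0.05 by r, by Spearman's rho and without the 2 libraries farthest from the median of the first gene. Since the sets were drawn by the projection genes' own values, the range of those genes is limited within each.

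Cdhr1 and Doc2g, both projection genes, had r = 0.98 (permutation p = 1e-05, adjusted p = 1.7e-05) and rho = 0.96 (permutation p = 1e-05, adjusted p = 1.96e-05) within the 24, and r = 0.97 without the 2 farthest libraries. Dlx1 and Sp8, both neuroblast genes, had r = 0.96 (permutation p = 1e-05, adjusted p = 1.7e-05) and rho = 0.97 (permutation p = 1e-05, adjusted p = 1.96e-05), and r = 0.96 without the 2 farthest. Across the roles, Sp8 and Cdhr1 had r = 0.84 (permutation p = 1e-05, adjusted p = 1.7e-05) and rho = 0.94 (permutation p = 1e-05, adjusted p = 1.96e-05), and r = 0.94 without the 2 farthest. For Sp8 the 2 farthest libraries were Het vehicle female replicates 3 and 4. Leaving out replicates 3 and 4 by name, a choice made after seeing the data, thus gave the same r of 0.94 between Sp8 and Cdhr1. Between Dlx1 and Cdhr1, r was then 0.97, against 0.93 with all 24.

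In the other 36 libraries the neuroblast genes still moved together, and Tbx21 had no adjusted p under 0.05 with any of the 9 other members, by r or by rho. Dlx1 and Sp8 had r = 0.90 (permutation p = 1e-05, adjusted p = 1.7e-05) and rho = 0.88 (permutation p = 1e-05, adjusted p = 1.96e-05), and r = 0.85 without the 2 farthest. Cdhr1 and Th had r = 0.84 (permutation p = 1e-05, adjusted p = 1.7e-05) and rho = 0.67 (permutation p = 2e-05, adjusted p = 3.67e-05), and r = 0.78 without the 2 farthest. By r, an adjusted p under 0.05 was reached by 9 of 10 neuroblast pairs, 3 of 6 projection pairs, 12 of 20 pairs across these roles, 5 of 5 pairs of Th with neuroblast genes and 3 of 4 pairs of Th with projection genes. Eomes and Tbx21 had r = −0.02 (permutation p = 0.913, adjusted p = 0.923) and rho = 0.03 (permutation p = 0.879, adjusted p = 0.889), at 0 to 33 reads of Tbx21 per library. Pairs of Dcx with Cdhr1, Eomes, Dlx2 and Th rested on the 2 farthest libraries, as r without them was 0.0036, 0.22, 0.09 and 0.08.

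**Figure D4:**
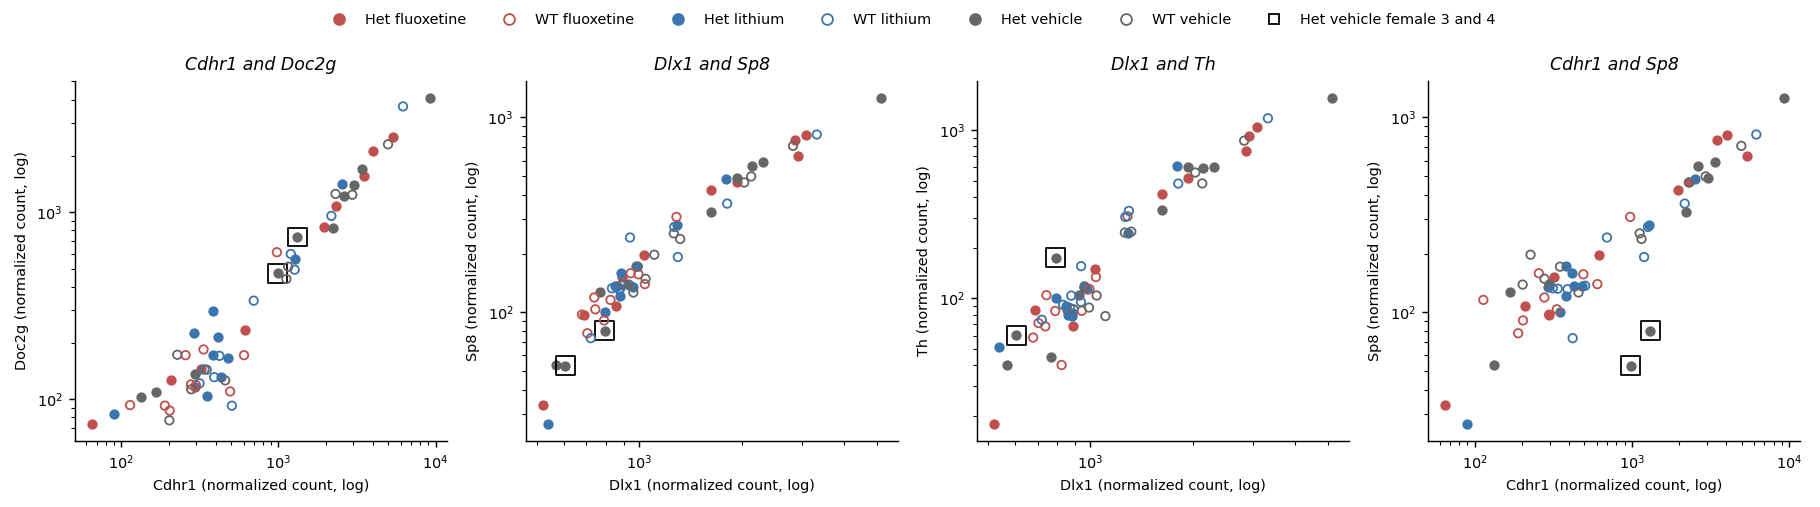
Pairs of members on log axes in normalized counts, 1 point per library, colored by treatment with Het filled and WT open. Cdhr1 against Doc2g, Dlx1 against Sp8 and Dlx1 against Th form narrow bands, and in Cdhr1 against Sp8 the squares at Cdhr1 988 and 1316 lie below the band.

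Genes outside the list whose level followed the members most closely were ranked by Spearman's rho over the 60 libraries among 14362 genes, as a description that pools the 24 and the 36. For Tbx21 the 10 nearest were Shisa3 at 0.84, then Fam19a3, Npr1, Ppm1j, Rab37, Ms4a15, Lgr6, Klhl30, Scgn and Reln at 0.78. Reln encodes reelin, a secreted protein that mitral cells make, and it ran from 1756 to 6520 normalized counts. For Dlx2 they were Cacng5 at 0.92, then Sp9, Lgr5, Pbx3, Meis1, Igfbpl1, Scgn, Shisa8, Cdca7 and Sp7 at 0.86. Sp9 is a zinc finger factor of the same family as Sp8, and Igfbpl1 is a marker of neuroblasts. For Th they were Pbx3 at 0.92, then Cacng5, Scgn, Calb2, Shisa8, Trh, Meis1, Ptpro, Isoc1 and Frmd7 at 0.87. Calb2 (calretinin) and Scgn (secretagogin) are calcium-binding proteins of periglomerular and granule cells. A rho of at least 0.5 was reached by 254 genes for Tbx21 (1.77% of those ranked), 597 for Dlx2 (4.16%) and 609 for Th (4.24%).

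Many other bulb genes followed the members, and most markers of neighboring tissues stayed below a rho of 0.5. The members and these lists were chosen with earlier results of these data known, so the counts are a description. A rho of at least 0.5 with Tbx21 was reached by 7 of 9 further projection neuron genes, among them Shisa3, Reln, Nmb, Lbhd2 and Barhl2, by 10 of 14 further bulb interneuron genes, among them Calb2, Pax6 and Synpr, and by 3 of 10 further neuroblast genes. It was also reached by 3 of 6 olfactory ensheathing cell genes, 2 of 8 catecholamine genes (Slc18a2 and Slc6a3), 1 of 5 olfactory sensory neuron genes, 1 of 8 cortical interneuron genes (Adarb2, while Lhx6 was at −0.5 or lower) and 1 of 6 choroid plexus genes (Aqp1). None of 10 cortical projection neuron, 10 striatal, 7 oligodendrocyte, 8 proliferating progenitor or 6 leptomeningeal genes reached it. With Dlx2 the counts were 8 of 9 projection, 11 of 14 interneuron, 6 of 10 neuroblast, 2 of 6 ensheathing, 3 of 8 catecholamine and 1 of 7 oligodendrocyte genes (Mag). They were 1 of 5 sensory, 1 of 8 cortical interneuron and 1 of 6 choroid plexus genes, and 0 of the 10 cortical projection, 10 striatal, 8 progenitor and 6 leptomeningeal genes, while 3 of the 10 cortical projection genes had a rho of −0.5 or lower. The 7 oligodendrocyte genes all lay close to the bound of 0.5 with Dlx2, from 0.453 for Mog to 0.51 for Mag. Dlx5 was not ranked against these lists, and its level beside the striatal sum is given further below. Genes of T and NK cells, which also use Tbx21, were not analysed here.

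Summed levels of the further lists overlapped between the 24 libraries and the 36. Genes high in every library entered these sums, such as Reln at 1756 or more and Gad1 at 6570 or more. Shisa3, by contrast, had a median of 44.4. The 9 further projection genes summed to 5062 to 11772 normalized counts in the 24, against 3693 to 5781 in the 36, and the 14 interneuron genes to 28345 to 69142 against 27544 to 41911. The 10 cortical projection genes summed to 49658 to 67741 in the 24, with a median of 60849, against 52360.2 to 74352 with a median of 67035 in the 36. By the F test over the 12 groups, limma called 1 of 9 further projection genes (Kcng1), 4 of 14 interneuron genes, 4 of 10 neuroblast genes and 1 of 8 catecholamine genes (Ddc), beside 28.1% of all genes. It also called 2 of 8 progenitor, 1 of 6 ensheathing, 2 of 10 cortical projection, 2 of 8 cortical interneuron and 3 of 6 leptomeningeal genes, and none of the sensory, striatal, choroid plexus and oligodendrocyte genes. Kcng1 itself did not follow the members it was ranked against, with a rho of −0.088 with Tbx21, −0.007 with Dlx2 and 0.007 with Th.

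Het mice were set against WT mice under each treatment and in each sex, to ask whether the Chd8 allele went with another level of the bulb genes. None of the 10 members was called in any of the 6 comparisons (limma, Benjamini-Hochberg adjusted p under 0.05 over 17807 genes). The share of all genes called was 1.18% in fluoxetine males, 0.0393% in fluoxetine females, 0.00562% in lithium males, 0.0168% in lithium females, 0.0168% in vehicle males and 0.0225% in vehicle females. At an unadjusted p under 0.05 there were 0 members in fluoxetine males (all genes 16.7%), 4 in fluoxetine females (11.9%), 0 in lithium males (3.16%) and 6 in lithium females (4.89%). There were 0 in vehicle males (8.22%) and 1 in vehicle females (6.45%). As the members move together across libraries, these counts are not independent of each other.

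In lithium females all 10 fold changes were below 0, with a median of −1.56 on the log2 scale, the farthest from 0 of these 6 comparisons, beside −0.0019 for all genes. Sp8 stood at 101, 26.6, 136, 134 and 159.8 in Het lithium females, against 132, 361, 816, 192 and 137 in WT lithium females. Th stood at 101, 51.1, 90.1, 116 and 81.5 in Het and at 104, 481, 1175, 331 and 95.3 in WT lithium females. WT replicates 2, 3 and 4 were high for both genes, WT replicates 1 and 5 lay within the Het range, and the groups overlapped for all 10 members. The 3 fold changes with the smallest p were −2.14 ± 0.97 for Cdhr1, −0.88 ± 0.41 for Dlx1 and −1.39 ± 0.66 for Sp8 (SE, 5 libraries against 5; adjusted p = 0.946 for Cdhr1). Each of these 3 was lower in 5 of 5 Het libraries than the WT mean on the log2 scale.

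Under fluoxetine the direction was the other way in both sexes, with 10 of 10 fold changes above 0. In females the median was 1.46, and the smallest p values belonged to 2.11 ± 0.94 for Doc2g, 0.91 ± 0.41 for Dlx1 and 0.71 ± 0.34 for Dlx5 (adjusted p = 0.360 for Doc2g). Doc2g stood at 2527, 2116, 1077, 145 and 234 in Het fluoxetine females, against 172, 120.1, 110.2, 92.5 and 611 in WT fluoxetine females. Het replicates 1 to 3 were above all WT libraries and Het replicates 4 and 5 among them. In males the median was 0.73, with 2.24 ± 1.40 for Tbx21, 0.46 ± 0.39 for Dlx2 and 1.10 ± 0.94 for Doc2g (adjusted p = 0.421 for Tbx21). Tbx21 stood at 11.6, 101, 19.8, 6.62 and 112 in Het fluoxetine males and at 6.86, 5.67, 3.73, 6.84 and 3.97 in WT fluoxetine males. Het replicate 4 lay within the WT values and the other Het libraries above them. DESeq2 on recovered reads called 1 member in these males, Eomes at 4.42 (adjusted p = 0.0380, all genes 3.21%), and edgeR called none in any of the 6 comparisons. These male values depended on single libraries. Without the library labelled Het fluoxetine male replicate 5, 7 of 10 limma fold changes were above 0, with Dlx2 at 0.22, Doc2g at 0.47 and Tbx21 at 1.76 (limma adjusted p = 0.605 for Tbx21), and limma, edgeR and DESeq2 called 0 members, with 0, 0 and 2 at an unadjusted p under 0.05. In that limma fit Dcx was at −0.25, Dlx5 at −0.06 and Sp8 at −0.0011. Without Het fluoxetine male replicate 2, or WT fluoxetine male replicate 3 or 5, 1 member changed sign.

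Averaged over both sexes under fluoxetine, 7 of 10 members had an unadjusted p under 0.05 (all genes 24.9%) and 0 were called by limma (all genes 7.33%), with 1.60 ± 0.67 for Doc2g, 0.67 ± 0.29 for Dlx1 and 1.49 ± 0.68 for Cdhr1 (adjusted p = 0.123 for Doc2g). Count tests on the recovered reads gave other counts. By edgeR, 5 members were higher in Het fluoxetine mice (all genes 7.27%), with log2 fold changes of 2.31 for Cdhr1, 3.72 for Eomes, 2.90 for Tbx21, 2.24 for Doc2g and 1.90 for Th and adjusted p of at most 0.0411. DESeq2 called these and Dlx1 and Sp8 (all genes 11.6%). Without the library labelled Het fluoxetine male replicate 5, a choice made after seeing the data, edgeR called 0 members (all genes 4.04%) and DESeq2 3, Cdhr1 at 1.85, Eomes at 3.13 and Tbx21 at 2.67 (all genes 7.09%). An unadjusted p under 0.05 was then reached by 0 members in limma and 7 in edgeR, and the 10 fold changes were above 0 by each test. With all libraries, limma called 3 of 6 leptomeningeal, 2 of 10 cortical projection and 1 of 9 further bulb projection genes lower, and 1 of 10 further neuroblast and 1 of 8 catecholamine genes higher, and their part in the members' values was not tested.

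Under vehicle the sexes stood on opposite sides for most members. In males all 10 fold changes were above 0, with 1.48 ± 0.94 for Doc2g, 0.54 ± 0.41 for Dlx1 and 0.87 ± 0.66 for Sp8 (adjusted p = 0.690 for Doc2g). In females 7 of 10 were below 0, with −0.81 ± 0.39 for Dlx2, −1.19 ± 0.66 for Sp8 and −0.52 ± 0.34 for Dlx5 (adjusted p = 0.755 for Dlx2). Dlx2 stood at 98.5, 252, 80.0, 129 and 351 in Het vehicle females, against 222, 240.0, 191, 447 and 335 in WT vehicle females, so 3 Het libraries lay below every WT library and the other 2 lay within the WT range. Without Het vehicle female replicates 3 and 4 the change of Sp8 was −0.50, against −1.19 ± 0.66 with them, and that of Dlx2 was −0.41. Under lithium in males the fold changes were 1.42 ± 1.40 for Tbx21, 0.77 ± 0.94 for Doc2g and 0.25 ± 0.34 for Dlx5 (none called). Averages over both sexes gave 0.79 ± 0.67 for Doc2g, 1.05 ± 1.16 for Eomes and 0.57 ± 0.68 for Cdhr1 under vehicle (0 of 10 called, all genes 0.0562%), and −0.84 ± 0.68 for Cdhr1, −0.67 ± 0.60 for Th and −0.30 ± 0.28 for Dlx2 under lithium (0 of 10, all genes 0.0393%). No member had an unadjusted p under 0.05 in these 2 averages, beside 7.79% of all genes under vehicle and 6.46% under lithium.

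**Figure D5:**
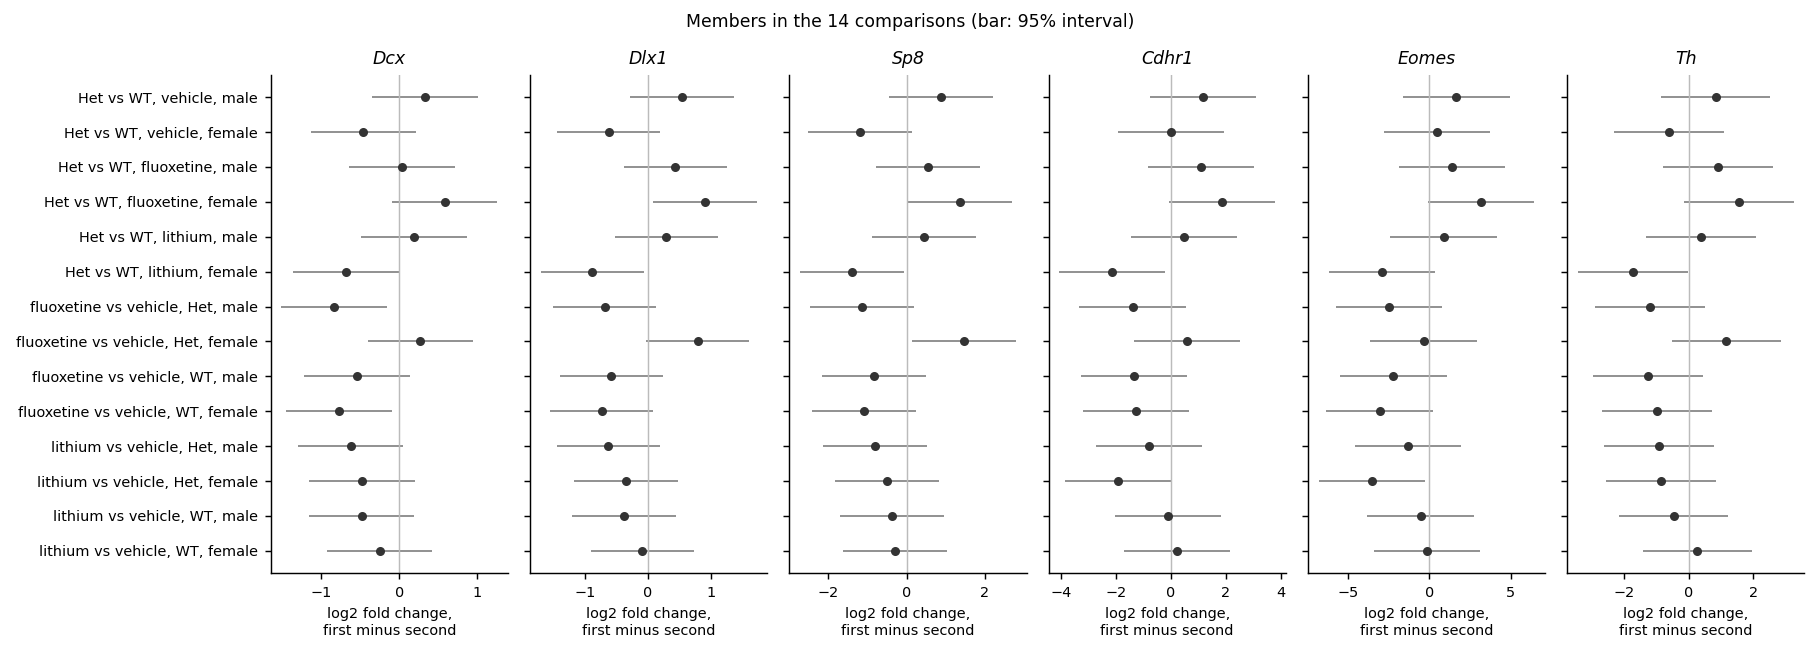
Log2 fold changes of 6 members in the 14 comparisons of 5 libraries with 5, Het minus WT or drug minus vehicle, with 95% intervals from limma. Intervals of Cdhr1 and Eomes span several log2 units. In lithium females the Het minus WT change was −2.14 for Cdhr1 with an interval of −4.08 to −0.20.

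Fluoxetine was set against vehicle in each genotype and sex. None of the 10 members was called in Het males (all genes 22.7%), Het females (15.1%), WT males (1.34%) or WT females (2.5%). At an unadjusted p under 0.05 there was 1 member in Het males (all genes 35.1%), 2 in Het females (29.9%), 0 in WT males (11.1%) and 1 in WT females (17%). As shares of the members these were below the shares of all genes in each of the 4 comparisons.

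In Het males Dcx stood at 1349, 3594, 1847, 1760.4 and 5401 with fluoxetine, against 10368, 4976, 1893, 5465 and 2850.3 with vehicle. The fluoxetine libraries 2 and 5 and the vehicle libraries 1, 2 and 4 were high, and the groups overlapped. The fold changes with the smallest p were −0.83 ± 0.34 for Dcx, −1.14 ± 0.66 for Sp8 and −0.57 ± 0.34 for Dlx5, and for Dcx the adjusted p was 0.0654, with 4 of 5 fluoxetine libraries below the vehicle mean. Dcx was called lower when 1 of 4 libraries was left out, Het fluoxetine male replicate 2 (−0.97, adjusted p = 0.0387), Het fluoxetine male replicate 5 (−1.12, adjusted p = 0.0136), Het vehicle male replicate 3 (−1.13, adjusted p = 0.0115) or Het vehicle male replicate 5 (−0.98, adjusted p = 0.0381), and the share of all genes called was then 23% to 24.8%. Leaving out any other library of either group called no member by limma. The smallest limma adjusted p over the members was then 0.1237 to 0.3004, the latter without Het vehicle male replicate 1. edgeR and DESeq2 called no member in any of these 4 comparisons of fluoxetine with vehicle when all libraries entered. Without the library labelled Het fluoxetine male replicate 5, edgeR called Dcx at −1.28, Dlx1 at −1.27 and Dlx5 at −0.95 lower in Het males (all genes 22.8%), and DESeq2 called these with Cdhr1 and Doc2g (all genes 24.6%). In the same Het male comparison with all libraries, limma called 5 of 10 further neuroblast genes lower, with a median of −0.53. It also called 4 of 8 proliferating progenitor genes lower, beside 1903 of all 17807 genes tested. Of 14 further bulb interneuron genes it called 0, with a median of −0.18. Of 9 further bulb projection genes it called 1 lower, with a median of −0.606, and of 8 catecholamine genes 2 higher.

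In Het females the neuroblast genes pointed the other way. Dlx2 stood at 394, 537, 282, 168 and 226 with fluoxetine, against 98.5, 252, 80.0, 129 and 351 with vehicle, and Sp8 at 630.4, 815, 466, 152 and 197 with fluoxetine, against 53.6, 326, 53.3, 80.5 and 589.5 with vehicle. Vehicle replicates 1, 3 and 4 were low for both genes, and the groups overlapped. The fold changes were 0.92 ± 0.39 for Dlx2, 1.46 ± 0.66 for Sp8 and 0.80 ± 0.41 for Dlx1 (adjusted p = 0.0962 for Dlx2 and 0.126 for Sp8). Both genes were called without Het vehicle female replicate 5, at 1.22 (adjusted p = 0.0301) for Dlx2 and 1.99 (adjusted p = 0.0362) for Sp8, with 15.7% of all genes called. Without vehicle replicates 3 and 4 together they were 0.52 (adjusted p = 0.593) and 0.77 (adjusted p = 0.655).

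Myelin genes moved with these neuroblast genes in Het females. Among all 17807 genes tested, 1260 were called higher and 1431 lower with fluoxetine in this comparison. Of 7 oligodendrocyte genes, 5 were called higher with fluoxetine, with a median log2 fold change of 1.12. Their summed level was 76028 to 133596 normalized counts with fluoxetine, against 21680.2 to 102249.6 with vehicle. Vehicle replicates 3 and 4 were the lowest of these, at 21680.2 and 27793. Of 6 leptomeningeal genes, 4 were called lower, and their summed level was 4261 to 5491 with fluoxetine, against 4523 to 8600.2 with vehicle. None of these genes was at 0 in any library, and their part in the change of Dlx2 and Sp8 was not tested.

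In WT males the values of Dcx with fluoxetine and with vehicle did not overlap. Dcx stood at 2709, 2789, 2104, 2702 and 1751 with fluoxetine, against 2987, 5182, 3397, 3084 and 2999 with vehicle, a fold change of −0.54 ± 0.34 (adjusted p = 0.587). Of all genes tested, 3.02% had fluoxetine values that lay wholly below the vehicle values in this comparison, beside 1 of 10 members. The next fold changes in WT males were −1.26 ± 0.85 for Th and −0.58 ± 0.41 for Dlx1. In WT females they were −0.77 ± 0.34 for Dcx, −3.07 ± 1.64 for Eomes and −0.73 ± 0.41 for Dlx1 (adjusted p = 0.222 for Dcx), with Dcx below the vehicle mean in 5 of 5 libraries.

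Averaged over both sexes, fluoxetine gave −0.65 ± 0.24 for Dcx, −2.65 ± 1.16 for Eomes and −0.65 ± 0.29 for Dlx1 in WT mice (0 of 10 called, all genes 8.2%; adjusted p = 0.0757 for Dcx), and 10 of 10 fluoxetine libraries lay below the vehicle mean of Dcx. A fit of only these groups called 4 members lower (all genes 11.7%), Dcx, Dlx1, Dlx2 and Sp8. edgeR called 1, Eomes at −3.30 (all genes 8.33%), and DESeq2 called the 4 projection genes (all genes 11.3%). Which members were called in WT mice thus differed between the tests. In Het mice the averages were −1.43 ± 1.16 for Eomes, −0.28 ± 0.24 for Dcx and 0.22 ± 0.28 for Dlx2 (0 of 10 called, all genes 32.9%). At an unadjusted p under 0.05 there were 6 members in WT mice (all genes 23.4%) and 0 in Het mice (42.6%).

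Lithium was set against vehicle in the same 4 ways, with the vehicle libraries shared with the fluoxetine comparisons. None of the 10 members was called in Het males (all genes 2%), Het females (0.629%), WT males (0.0786%) or WT females (0.118%). At an unadjusted p under 0.05 there were 0, 3, 0 and 0 members in that order, beside 19.6%, 13.8%, 9.09% and 11.3% of all genes. The 3 were the projection genes Tbx21, Eomes and Doc2g in Het females.

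In Het females Tbx21 stood at 1.01, 3.20, 4.50, 2.81 and 7.61 with lithium, against 7.65, 84.0, 41.5, 116 and 160.4 with vehicle. The highest lithium library and the lowest vehicle library nearly met, and the groups did not overlap, as was so in this direction for 1.08% of all genes. Eomes stood at 14.1, 3.20, 28.1, 20.6 and 15.2 with lithium, against 21.0, 281, 189, 201 and 588 with vehicle, and the groups overlapped by 1 vehicle library. Fold changes were −3.71 ± 1.40 for Tbx21, −3.54 ± 1.64 for Eomes and −1.96 ± 0.94 for Doc2g (adjusted p = 0.206 for Tbx21, 95% interval −6.52 to −0.90). DESeq2 called Tbx21 lower at −4.42 (adjusted p = 0.0283, all genes 1.92%), and edgeR called no member. The neuroblast genes Dlx1 and Sp8 had fold changes of −0.35 ± 0.41 and −0.50 ± 0.66, and their difference from the projection genes was not tested. Without Het vehicle female replicates 3 and 4, Dlx1 was at −0.70 and Sp8 at −1.18, beside −3.50 for Tbx21 and −3.41 for Eomes (none called by limma).

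In Het males the lithium fold changes were −0.62 ± 0.34 for Dcx, −0.63 ± 0.41 for Dlx1 and −0.80 ± 0.66 for Sp8 (adjusted p = 0.301 for Dcx). WT males gave −0.48 ± 0.34 for Dcx, −0.38 ± 0.41 for Dlx1 and −1.24 ± 1.40 for Tbx21 (adjusted p = 0.701 for Dcx), and WT females −0.25 ± 0.34 for Dcx, −0.99 ± 1.40 for Tbx21 and −0.29 ± 0.66 for Sp8 (adjusted p = 0.841 for Dcx). Tbx21 in WT lithium females stood at 0, 99.8, 356, 68.6 and 0, against 1.15, 51.0, 13.2, 318 and 152 in WT vehicle females, so both groups covered nearly the same span. Without WT lithium female replicate 1 or replicate 5 its fold change was 0.07, and that of Sp8 was 0.0056 without WT vehicle female replicate 4, so 1 library decided the sign of each.

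Averaged over both sexes, lithium gave −0.55 ± 0.24 for Dcx, −2.28 ± 0.99 for Tbx21 and −2.43 ± 1.16 for Eomes in Het mice (0 of 10 called by limma, all genes 9.14%; adjusted p = 0.136 for Dcx). edgeR called Cdhr1, Eomes and Tbx21 lower in this comparison (all genes 9.61%), at −1.98, −2.91 and −3.01, and DESeq2 called these and Doc2g (all genes 12.9%). In WT mice the averages were −0.37 ± 0.24 for Dcx, −1.12 ± 0.99 for Tbx21 and −0.23 ± 0.29 for Dlx1 (0 of 10 called, all genes 2.97%). At an unadjusted p under 0.05 there were 4 members in Het mice (all genes 25.1%) and 0 in WT mice (17.7%).

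Across all 12 groups, no member was called by the moderated F test of limma, with adjusted p of 0.1099 for Dcx, 0.299 for Th and values between for the others, beside 28.1% of all genes called. Groups accounted for 23.1% to 29.8% of the variance of the members' log2 values, against a median of 28.2% over all genes and 18.6% for 11 of 59 degrees of freedom when groups do not differ. edgeR called 7 members in this test (all genes 28.1%), the 4 projection genes, Dcx, Dlx1 and Th, with adjusted p of at most 0.04045, and DESeq2 called 8 (all genes 36.1%), these and Sp8. No test of an interaction called a member in any of 9 combinations of genotype, drug and sex (all genes 0.0112% for sex by fluoxetine in Het, 0.927% for genotype by fluoxetine in males and 0% in the other 7). The smallest p there belonged to Sp8, whose fluoxetine change in Het males minus that in Het females was −2.60 ± 0.94 (adjusted p = 0.254), and to Dlx2, whose fluoxetine change in Het females minus that in WT females was 1.51 ± 0.55 (adjusted p = 0.266).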

How the data were processed

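Bulk mRNA of 60 prefrontal cortex samples was sequenced from a stranded library, per the labels' protocols. The deposited table holds 1 signal value per gene and library, normalized read counts that the authors made by dividing reads by a size factor. The submitters' processing notes name the build GRCm38, R 3.6.0, Salmon 0.11.2 and DESeq2 1.19.11. Dividing by each library's step gave whole reads for 100% of values within 0.001. Groups came from the sample labels.

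Values were analysed as log2(value + 1) with limma 3.58.1 in R 4.3.3, fitting 12 group means over 60 libraries without a replicate term (48 residual degrees of freedom) for the 17807 genes that reached 10 in 5 libraries or more. The 14 comparisons, 7 averages over the sexes, 9 interactions and 1 F test were adjusted by Benjamini-Hochberg over all genes, with a threshold of 0.05. The fit was run on simulated counts that gave every gene the same spread beyond counting error. The wider spread of the members was not simulated. Fold changes of low genes by limma could lie on either side of those by count tests. Without Het fluoxetine male replicate 5, Eomes in Het against WT under fluoxetine over both sexes was 1.66 by limma and 3.07 by edgeR. For fluoxetine against vehicle in Het males it was −3.73 by limma and −2.79 by edgeR. edgeR 4.0.16 and DESeq2 1.42.0 on recovered reads, quantile normalization, a pseudocount of 8, no filter, fits of only the groups compared, a replicate block and leaving out single libraries were alternatives. Fits without Het fluoxetine male replicate 5 by all 3 tools, and without Het vehicle female replicates 3 and 4, were added after seeing the data. Correlations were planned over all 60 libraries and were made within 24 and 36, a choice made after seeing the data. The cut was set where the rankings of the 4 projection genes agreed fully. Intervals and floors cover counting error only where they come from reads.

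Named genes were all 10 members, the 3 with the smallest p in each comparison, the 10 genes nearest to Tbx21, Dlx2 and Th, and Chd8. Members and gene lists were chosen with earlier results of these data known. Gene positions are from GENCODE on GRCm38 and promoters from RefSeq on GRCm38.p6. In addition, 1 gene of the oligodendrocyte list is not reported here and enters none of its values.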

Additional observations from a re-analysis of the deposited data

Results flagged for a closer look

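Single libraries stood apart within their groups of 5 in 4 of 120 checks (10 genes in 12 groups), where the gap to the nearest library exceeded 0.71 of the group's range on the log2 scale. Chance flags about 1 in 20 groups, and 4 of 120 is below that rate. Dcx in WT vehicle male replicate 2 was high at 5182 normalized counts, with the other 4 libraries at 2987 to 3397. Dlx5 in Het lithium female replicate 4 was high at 250.5, with the others at 108.7 to 126.7. The summed level of 10 striatal genes was 21334 in that library, against 6266 to 8661 in the other 4. Among the 36 libraries, Dlx5 was also high in Het fluoxetine female replicate 5 at 219, WT fluoxetine female replicate 2 at 188 and WT fluoxetine male replicate 3 at 182. Their striatal sums were 29450, 13927 and 23798, against a median of 7514 over the 36. WT vehicle male replicate 1 had a sum of 14801 with Dlx5 at 167. The part of striatal tissue in these Dlx5 values was not tested. Het lithium female replicate 2 was low for Sp8 at 26.63, with the others at 100.6 to 159.8, and low for Cdhr1 at 89.48, with the others at 291.7 to 429. That library also had the lowest summed oligodendrocyte level of all 60, 21106.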

How the results depend on the processing

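Quantile normalization, a pseudocount of 8, no filter on low values and the replicate block left 0 members called in each of the 14 comparisons and 7 averages, as in the reported fit. The replicate numbers did not pair the libraries: the median correlation of deviations was 0.001 over 330 pairs with the same number and −0.002 over 1320 other pairs, so the block result of 0 called is given only here. DESeq2 called 1 member in Het against WT fluoxetine males (Eomes, 4.42, adjusted p = 0.0380) and 1 in lithium against vehicle Het females. In averages over the sexes, Het against WT under fluoxetine had 5 called by edgeR and 7 by DESeq2, fluoxetine against vehicle in WT had 1, 4 and, fitting only those groups, 4, and lithium against vehicle in Het had 3 by edgeR and 4 by DESeq2. The cause was not tested.

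The F test over the 12 groups gave adjusted p by edgeR of 0.04045 for Dcx, 0.0285 for Dlx1, 0.0143 for Cdhr1, 0.0198 for Eomes, 0.0105 for Tbx21, 0.0175 for Doc2g and 0.0325 for Th. By DESeq2 it gave 0.0308 for Dcx, 0.00893 for Dlx1, 0.0218 for Sp8, 0.00110 for Cdhr1, 0.00511 for Eomes, 0.00177 for Tbx21, 0.002095 for Doc2g and 0.005605 for Th. Without the library labelled Het fluoxetine male replicate 5, a choice made after seeing the data, Het against WT under fluoxetine over both sexes had 0 called by edgeR and 3 by DESeq2, and fluoxetine against vehicle in Het males had 3 by edgeR and 5 by DESeq2. By limma, leaving out single libraries gave 0 to 1 called for fluoxetine against vehicle in Het males and 0 to 2 in Het females, and 0 in the other 12 comparisons. Among all 10 members, at least 1 sign changed in 45 of 140 fits of a comparison with a library left out, in 9 of 14 comparisons and for at most 4 members at once. Among the 3 named members of each comparison, signs turned for Tbx21 in lithium against vehicle WT females (−2.05 to 0.072 over the left-out libraries, 0.072 without WT lithium female replicate 1 or 5), for Sp8 there (−0.72 to 0.0056, the highest without WT vehicle female replicate 4), and, apart from fold changes, the sign turned for r of Eomes and Tbx21 within 36 libraries (0.15 with a pseudocount of 8, 0.24 with group means subtracted). Of 860 fold changes under alternatives, 837 kept their direction and side of the threshold. Depth limits Eomes and Tbx21, which had 0 to 71 and 0 to 33 reads in the 36 libraries.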
